A study of Mus musculus with 60 samples.

Results

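TRBJ1-1, TRBJ1-2, TRBJ1-3, TRBJ1-4 and TRBJ1-5 are joining (J) segments of the first J cluster of the mouse T cell receptor β (TCRβ) locus. They were taken by name, with the allele suffix dropped, from the clonotype tables of CD4+ and CD8+ T cells, and they are 5 of the 12 TRBJ segments that those tables list. The CD4 table assigned 28278 of its 85775 clonotypes (32.97%) to these segments and that of CD8 cells 24440 of 82447 (29.6%). TRBJ1-6, which lies in the same cluster, is not a member and is counted among the other segments.

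The study compared the T cell receptor repertoires of donor T cells before and after allogeneic hematopoietic cell transplantation (HCT), in which donor T cells attack tissues of the recipient. Donors were C57BL/6 mice that were wild type (WT), Stat3 fl/fl CD4-Cre (STAT3ko) or Stat3 fl/fl PD-1-/- CD4-Cre (STAT3koPD-1ko). CD4-Cre deletes Stat3 in T cells of both lineages, because their thymic precursors express CD4, whereas PD-1 was absent from all cells of its donors. All recipients were lethally irradiated WT BALB/c mice that also received T cell-depleted bone marrow from WT C57BL/6 donors. For each of CD4+ and CD8+ cells there were 15 TCRβ libraries. Of these, 3 came from spleen before HCT (1 per genotype, titled naive) and 12 from day 6 after HCT, with 2 from liver and 2 from gut per genotype, each day 6 sample pooling lymphocytes of 3 recipients sorted for donor H-2Kb and TCRβ. The tables hold clonotypes only, so the sorted cell types could not be checked against marker genes.

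A TCRβ chain is assembled in the thymus by joining 1 V, 1 D and 1 J segment, with bases trimmed from the ends and others added between them. The J segment encodes the end of the third complementarity-determining region (CDR3), the loop that contacts the presented peptide, and the framework strand that follows it, so a J segment contributes a short, fixed run of residues to the receptor. The mouse locus has D-J clusters in tandem, and Trbd1 can join J segments of both clusters, whereas Trbd2 lies downstream of the first.

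The germline sequences of the segments are shown because their CDR3 parts set what each adds to the receptor. They were read from the reference genome (GRCm38, the mm10 build named in the labels, with GENCODE gene records), are all on the + strand of chromosome 6 and are annotated as TR_J_gene. Capitals mark the bases that fall within the CDR3, up to and including the codon of the conserved phenylalanine, and lower case marks the framework part with the splice donor end.

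TRBJ1-1, chr6:41533864-41533911: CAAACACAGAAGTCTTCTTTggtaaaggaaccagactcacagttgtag
TRBJ1-2, chr6:41534001-41534048: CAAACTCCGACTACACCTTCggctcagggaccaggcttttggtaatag
TRBJ1-3, chr6:41534323-41534372: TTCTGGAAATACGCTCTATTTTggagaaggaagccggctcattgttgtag
TRBJ1-4, chr6:41534811-41534861: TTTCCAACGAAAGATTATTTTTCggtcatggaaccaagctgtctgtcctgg
TRBJ1-5, chr6:41535084-41535133: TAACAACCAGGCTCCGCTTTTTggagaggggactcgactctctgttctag

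The 5 segments span 1270 bases, from 41533864 to 41535133. Trbd1 ends 651 bases before TRBJ1-1, and Trbd2 starts 7029 bases after TRBJ1-5. Untrimmed, TRBJ1-1 and TRBJ1-2 give 20 CDR3 bases, TRBJ1-3 and TRBJ1-5 give 22, and TRBJ1-4 gives 23.

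Usage here is the summed read fraction of the clonotypes of a segment as a percent of all listed reads of a library. The tables list clonotypes found in at least 2 of up to 18 joined libraries, of which 15 per table were analysed here, and the listed clonotypes made up a different share of the libraries. In the CD4 table they held 88.4 to 97.2% of the reads before HCT, 85.6 to 93.5% in liver, 81.6 to 83.6% in the gut libraries numbered 1 and 47.8 to 51.5% in those numbered 2. In the CD8 table the gut libraries numbered 2 held 53.2 to 58.0% and all others at least 81.5%. The tables merge clonotypes with the same CDR3 residues and give the V, D and J segments of 1 representative, so every J usage, V share and D label below rests on it. The tables give no read counts, so the depth behind a value is unknown.

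Some libraries shared far more of their TRBJ1 reads than others, measured as the sum over TRBJ1 clonotypes of the smaller of the 2 frequencies. The before HCT library and liver library 1 of the same genotype shared on average 46.2% ± 6.39 (SD, n = 3 pairs) in CD4 cells and 46.7% ± 7.48 in CD8 cells, against 5.87% and 6.02% between genotypes. Liver library 2 shared 7.08% ± 1.68 with the before HCT library of its genotype in CD4 cells, against 6.78% between genotypes, a difference smaller than the SD. Gut library 1 also shared 18.8% ± 3.67 with the before HCT library of its genotype in CD4 cells and 21.0% ± 3.66 in CD8 cells, against 7.11% and 7.09% between genotypes. In CD4 cells gut library 1 shared 27.9% ± 7.77 with liver library 1 and 26.9% ± 3.02 with liver library 2 of its genotype, whereas gut library 2 shared 8.07% ± 4.22 with liver library 2 and 7.66% with those of other genotypes. How these libraries came to share clonotypes was not tested, and results are also given without the liver libraries numbered 1 and without the gut libraries numbered 2 where that changes a call. No pair of libraries was a duplicate, with a highest Pearson r of 0.554 (CD4) and 0.634 (CD8) across clonotypes, given as a description.

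In CD4+ cells, TRBJ1-1 was the most used of the 5 segments and TRBJ1-5 the least. Over all 15 libraries the mean usage was 11.96% ± 1.47 for TRBJ1-1, 7.58% ± 0.654 for TRBJ1-4, 6.68% ± 1.01 for TRBJ1-3, 3.95% ± 0.479 for TRBJ1-2 and 1.73% ± 0.523 for TRBJ1-5 (SD, n = 15). This order was the same before HCT, in liver and in gut. The ranges of TRBJ1-4 and TRBJ1-3 overlapped in liver and in gut, and those of the other neighbours did not.

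In CD8+ cells, TRBJ1-1 again ranked first, at 13.1% ± 0.862, and TRBJ1-5 last, at 1.64% ± 0.406. TRBJ1-2 had a mean of 4.52% ± 0.442, TRBJ1-4 of 4.47% ± 0.494 and TRBJ1-3 of 3.49% ± 0.428. TRBJ1-2 and TRBJ1-4 overlapped at every site, and they changed places in gut, so their order is not defined beyond the spread.

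The CD4 and CD8 libraries were joined in separate tables, so their levels are set side by side without a test. The CD4 and CD8 ranges did not overlap for 2 of the 5 members, TRBJ1-3 and TRBJ1-4, where they did not for 50% of all 12 segments. TRBJ1-3 ranged from 5.14 to 8.53% in CD4 libraries and from 2.73 to 4.16% in CD8 libraries, and TRBJ1-4 from 6.35 to 8.46% and from 3.53 to 5.25%. For both segments the CD4 library was higher in 15 of 15 pairs matched by site, genotype and number, with a median ratio of 1.90 for TRBJ1-3 and 1.65 for TRBJ1-4. The ranges of both also did not overlap when each clonotype was counted once (66.7% of the 12 segments), with means of 7.11 and 3.79% for TRBJ1-3 and of 7.72 and 5.23% for TRBJ1-4. TRBJ1-1 and TRBJ1-2 were lower in the CD4 library in 12 and 13 of 15 pairs, with median ratios of 0.914 and 0.887, and TRBJ1-5 was higher in 9 of 15. Within single V segments the pattern of TRBJ1-3 and TRBJ1-4 held for most of the 15 V segments compared. The CD4 share of TRBJ1-3 was higher in 13 before HCT, in 12 in liver and in 13 in gut, and that of TRBJ1-4 in 13, 13 and 15.

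**Figure D1:**
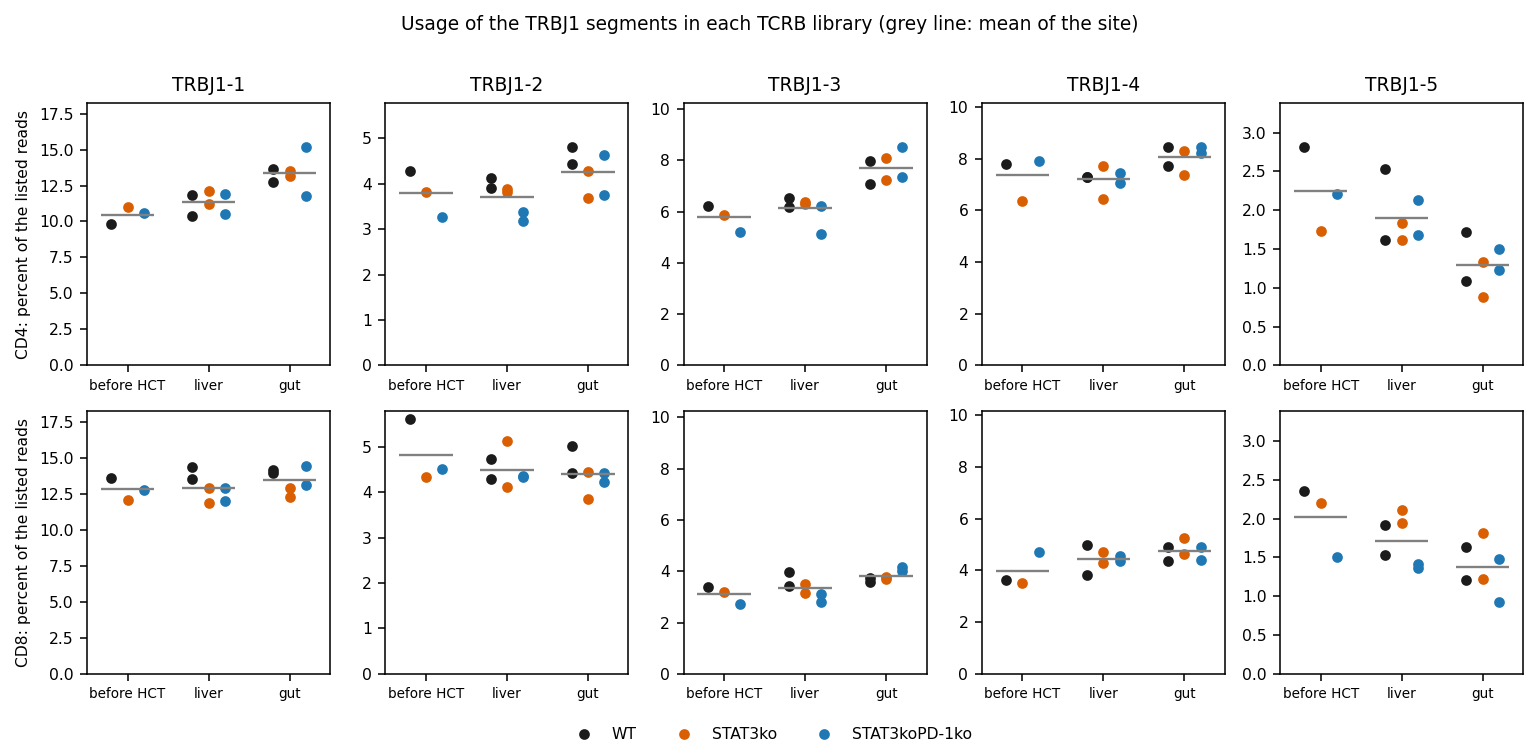
Usage of each TRBJ1 segment (percent of listed reads, y axis) in the 3 before HCT, 6 liver and 6 gut libraries of CD4 cells (top) and CD8 cells (bottom). Points are libraries, colored by donor genotype, and grey lines are site means. In CD4 cells all gut points of TRBJ1-3 lie above all liver points, and TRBJ1-3 and TRBJ1-4 sit higher in CD4 than in CD8 libraries throughout.

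The first question was whether donor T cells in gut used these segments differently from those in liver on day 6. In CD4+ cells, 5 of the 5 segments passed the test (limma on log2 of the percent plus 0.1, with donor genotype as a covariate, adjusted p under 0.05 over the 12 TRBJ segments). TRBJ1-1 to TRBJ1-4 rose in gut and TRBJ1-5 fell. Of all 12 TRBJ segments 50% passed, 33.3% higher and 16.7% lower, and the only other segment to pass was TRBJ2-5, which fell by 0.24 on the log2 scale (SE 0.06, adjusted p = 0.0077, limma). Usage is a share, so a rise of some segments lowers the others by construction.

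TRBJ1-3 showed the clearest separation. Its usage ran from 5.14 through a median of 6.25 to 6.54% in the 6 liver libraries and from 7.07 through 7.67 to 8.53% in the 6 gut libraries. The ranges did not overlap. The difference was 0.33 on the log2 scale (SE 0.07, adjusted p = 0.0041, limma).

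TRBJ1-1, the most used member, ran from 10.4 through 11.5 to 12.2% in liver and from 11.8 through 13.3 to 15.2% in gut. The gut libraries lay above all liver libraries in 5 of 6 cases, and the highest value was that of STAT3koPD-1ko gut library 2. The difference was 0.23 (SE 0.07, adjusted p = 0.015, limma).

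TRBJ1-5 moved the other way. It ran from 1.61 through 1.75 to 2.53% in liver and from 0.885 through 1.28 to 1.71% in gut, where 5 of 6 libraries lay below all liver libraries. The difference was -0.53 (SE 0.13, adjusted p = 0.0060, limma), the largest in size among the 12 segments.

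TRBJ1-2 and TRBJ1-4 differed less. TRBJ1-2 ran from 3.18 through 3.86 to 4.12% in liver and from 3.68 through 4.35 to 4.82% in gut, a difference of 0.19 (SE 0.07, adjusted p = 0.034, limma). TRBJ1-4 ran from 6.43 through 7.27 to 7.73% in liver and from 7.36 through 8.25 to 8.46% in gut, a difference of 0.16 (SE 0.06, adjusted p = 0.034, limma). For both, the ranges overlapped and 4 of 6 gut libraries lay above all liver libraries. Together the 5 segments held 30.3% ± 1.12 of listed reads in liver (SD, n = 6) and 34.7% ± 0.943 in gut (n = 6).

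These calls depended on how the clonotypes were weighted and on which were kept. With each clonotype counted once, 0 of the 5 segments passed, the differences being 0.13 for TRBJ1-1, 0.12 for TRBJ1-3 and -0.26 for TRBJ1-5. Without the V segments TRBV23 and TRBV26, which had a higher usage in gut, 0 passed (TRBJ1-3 0.26, adjusted p = 0.097 by limma). As fractions of all reads, listed or not, TRBJ1-1 to TRBJ1-4 were lower in gut (-0.17 to -0.33) and TRBJ1-5 alone passed, since the unlisted share was larger in gut. Without the gut libraries numbered 2, TRBJ1-2 and TRBJ1-3 passed (0.30 and 0.31), and without the liver libraries numbered 1, TRBJ1-3 and TRBJ1-5 passed (0.36 and -0.51). The call of TRBJ1-5 was thus lost without the gut libraries numbered 2. It averaged 1.52% ± 0.189 in the gut libraries numbered 1 and 1.07% ± 0.171 in those numbered 2 (SD, n = 3). Leaving out single libraries left TRBJ1-1, TRBJ1-3 and TRBJ1-5 past the threshold each time. The call of TRBJ1-4 was lost in 9 and that of TRBJ1-2 in 7 of these 12 fits, and all 5 calls were kept only without liver STAT3ko 2 and without gut STAT3ko 2. The count dropped to 3 without any one of 6 libraries, namely liver WT 1, liver WT 2, liver STAT3koPD-1ko 1, liver STAT3koPD-1ko 2, gut STAT3ko 1 and gut STAT3koPD-1ko 1.

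**Figure D2:**
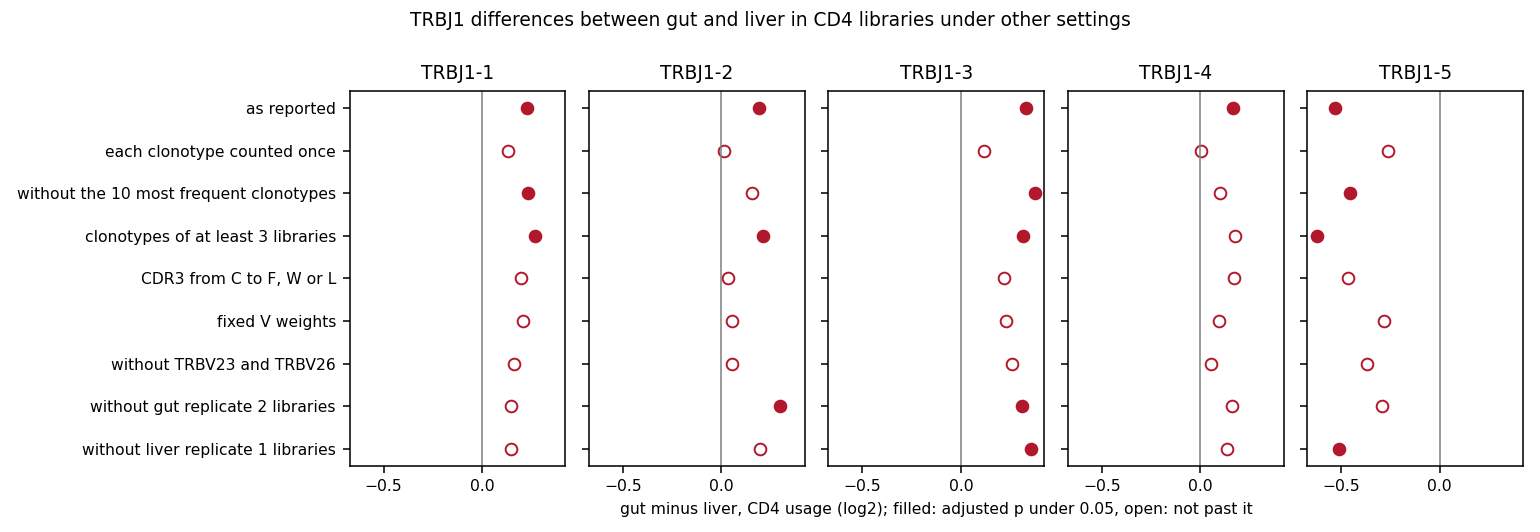
Gut minus liver difference of each TRBJ1 segment in CD4 libraries (log2 of usage, x axis) as reported and under 8 other settings (y axis). Filled points passed the adjusted p threshold of 0.05 in limma and open points did not. TRBJ1-3 stays to the right of 0 and TRBJ1-5 to the left under each setting drawn. No point is filled with each clonotype counted once, with CDR3 from C to F, W or L, with fixed V weights or without TRBV23 and TRBV26. Fractions of all reads, under which TRBJ1-3 was at -0.17, are not drawn.

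In CD8+ cells the same comparison gave 0 of 5 segments past the threshold, as it gave 0% of all 12, with 2 members at an unadjusted p under 0.05 in limma (16.7% of the 12). TRBJ1-3 ran from 2.79 through 3.29 to 3.98% in liver and from 3.60 through 3.77 to 4.16% in gut, a difference of 0.20 (95% interval 0.04 to 0.36, adjusted p = 0.098, limma). TRBJ1-5 ran from 1.37 through 1.73 to 2.11% in liver and from 0.924 through 1.35 to 1.82% in gut, a difference of -0.30 (95% interval -0.54 to -0.06, adjusted p = 0.098, limma). The ranges of both overlapped. TRBJ1-5 averaged 1.64% ± 0.173 in the gut libraries numbered 1 and 1.12% ± 0.169 in those numbered 2 (SD, n = 3), and without the latter its difference from liver was -0.043. TRBJ1-1, TRBJ1-2 and TRBJ1-4 differed by 0.06, -0.03 and 0.09. Without liver WT 1, TRBJ1-3 passed, and without gut STAT3koPD-1ko 1, TRBJ1-5 passed. Samples were processed in 2 batches, and no source says whether the library numbers mark them. With the number as a block, TRBJ1-5 passed (adjusted p = 0.044, limma).

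The second question was how day 6 libraries differed from those taken before HCT, in a fit of all 15 libraries of a table. CD4 gut differed from before HCT for 3 members, where 33.3% of all 12 segments passed. TRBJ1-1 was 9.83% in the WT, 11.03% in the STAT3ko and 10.6% in the STAT3koPD-1ko library before HCT, all below the lowest gut library at 11.8%, and it rose by 0.34 (SE 0.08, adjusted p = 0.0019, limma). TRBJ1-3 was 6.23, 5.88 and 5.19% before HCT, again below every gut library, and rose by 0.41 (SE 0.08, adjusted p = 0.00067, limma). TRBJ1-5 was 2.82, 1.73 and 2.20% before HCT, above every gut library, and fell by 0.76 (SE 0.15, adjusted p = 0.00067, limma).

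TRBJ1-2 (0.17, 95% interval -0.01 to 0.34, adjusted p = 0.14, limma) and TRBJ1-4 (0.14, 95% interval -0.02 to 0.30, adjusted p = 0.15, limma) did not pass. TRBJ1-2 passed without the gut libraries numbered 2 (0.27, adjusted p = 0.011, limma), with centred log ratios (0.21, adjusted p = 0.033, limma) and without the gut STAT3ko 2 library (0.21, adjusted p = 0.030, limma). TRBJ2-5 passed and fell by 0.31. Without TRBV23 and TRBV26, 0 of the 5 segments passed, with differences of 0.25 for TRBJ1-1, 0.32 for TRBJ1-3 and -0.54 for TRBJ1-5. With each clonotype counted once the call of TRBJ1-5 was lost (-0.33, adjusted p = 0.074, limma), while TRBJ1-1 (0.23) and TRBJ1-3 (0.20) passed. These gut values were also used in the comparison with liver, so the comparisons are not independent.

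CD8 gut differed from before HCT for 3 members, where 33.3% of all 12 segments passed and 41.7% were at an unadjusted p under 0.05. TRBJ1-3 was 3.38% in the WT, 3.20% in the STAT3ko and 2.73% in the STAT3koPD-1ko library before HCT, all below the lowest gut library at 3.60%, and it rose by 0.30 (SE 0.09, adjusted p = 0.031, limma). TRBJ1-5 was 2.36, 2.20 and 1.5005% before HCT, where the lowest value lay within the gut range, and it fell by 0.52 (SE 0.14, adjusted p = 0.030, limma). TRBJ1-4 was 3.64, 3.53 and 4.72% before HCT, overlapping the gut range, and rose by 0.26 (SE 0.10, adjusted p = 0.049, limma).

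The TRBJ1-4 call in CD8 cells was at the threshold: it was lost without any one of 11 of the 15 libraries. Without the before HCT WT library 0 of the 5 segments passed, and without the before HCT STAT3koPD-1ko library the call of TRBJ1-3 was lost. With each clonotype counted once 0 passed, and without the liver libraries numbered 1, 0 passed, with TRBJ1-3 and TRBJ1-5 at an adjusted p of 0.050 in limma. The other segment that passed was TRBJ2-3, which fell by 0.29 (adjusted p = 0.048, limma).

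Liver and before HCT libraries were compared in the same fits. In limma 0 of 5 members passed in either table, as did 0% of all 12 segments, and none was at an unadjusted p under 0.05. The differences ran from -0.23 (TRBJ1-5) to 0.11 (TRBJ1-1) in CD4 cells and from -0.22 (TRBJ1-5) to 0.17 (TRBJ1-4) in CD8 cells. The 95% interval of TRBJ1-5 was -0.54 to 0.09 in CD4 cells. The liver libraries numbered 1 shared on average 46.2% (CD4) and 46.7% (CD8) of TRBJ1 reads with the before HCT library of their genotype. The compared libraries are therefore not independent. Without the liver libraries numbered 1, 0 of the 5 members passed in either table.

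**Figure D3:**
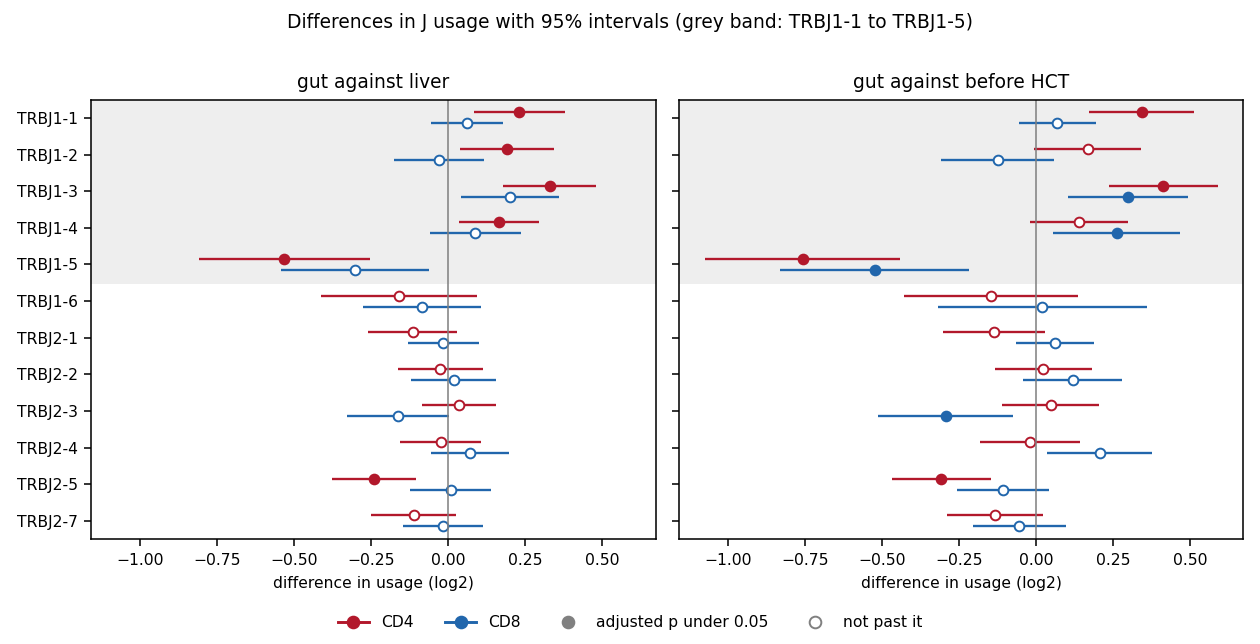
Differences in usage (log2, x axis) of the 12 TRBJ segments (y axis) for gut against liver and for gut against before HCT, with 95% intervals from limma, CD4 in red and CD8 in blue. Filled points passed the adjusted p threshold of 0.05. Within the grey band of TRBJ1-1 to TRBJ1-5, the CD4 gut against liver points are all filled, with TRBJ1-5 at -0.53 on the other side of 0 from its neighbours.

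Donor genotype was compared over the liver and gut libraries with tissue as a covariate, n = 4 libraries per genotype. No member passed for STAT3ko against WT or for STAT3koPD-1ko against STAT3ko in either table (limma, 0% of the 12 segments each). In CD4 cells none was at an unadjusted p under 0.05, and the members differed by -0.26 to 0.05 and by -0.08 to 0.21. In CD8 cells, 1 member in each comparison was at an unadjusted p under 0.05 in limma, as were 16.7% and 8.33% of all 12 segments.

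The first was TRBJ1-1 in STAT3ko against WT. Its usage in the CD8 day 6 libraries was 13.5, 14.4, 13.9 and 14.2% in WT and 11.9, 12.9, 12.3 and 12.9% in STAT3ko, so the ranges did not overlap. The difference was -0.17 (95% interval -0.31 to -0.02, adjusted p = 0.16, limma), and with each clonotype counted once it was -0.037 (adjusted p = 0.65, limma). Before HCT the WT library was also the higher one, at 13.6 against 12.1%.

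The other was TRBJ1-5 in STAT3koPD-1ko against STAT3ko. Its usage was 1.41, 1.37, 1.47 and 0.924% in STAT3koPD-1ko and 1.94, 2.11, 1.82 and 1.22% in STAT3ko. In liver both STAT3koPD-1ko libraries lay below both of STAT3ko, and in gut the ranges overlapped. The difference was -0.42 (95% interval -0.71 to -0.13, adjusted p = 0.094, limma). It passed without any one of 3 libraries (liver WT 1, gut STAT3koPD-1ko 1 or gut STAT3ko 2) and without the gut libraries numbered 2 (adjusted p = 0.0078, limma). It also passed with the library number as a block (adjusted p = 0.018, limma). With other single libraries left out the adjusted p rose to as much as 0.52 in limma, without liver STAT3ko 2. With each clonotype counted once the difference was -0.11 (adjusted p = 0.64, limma). Before HCT it was 1.5005% in STAT3koPD-1ko and 2.20% in STAT3ko. The interaction of tissue with genotype passed the adjusted threshold for 0 of the 5 members in either table, and the lowest of its values was that of TRBJ1-3 in CD8 cells (adjusted p = 0.37 by limma, unadjusted p = 0.031).

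The share of TRBJ1-1 to TRBJ1-5 depended on the V segment. Among 18 V segments with a usage of at least 1% in CD4 day 6 libraries, it ran from 21.6% ± 6.9997 with TRBV12-2 through a median of 32.0% to 40.3% ± 7.36 with TRBV1 (SD, n = 12 libraries). Among 16 V segments in CD8 libraries it ran from 18.9% ± 2.72 with TRBV12-2 through 26.2% to 34.4% ± 3.23 with TRBV13-1. TRBV12-2 was the lowest in both tables.

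TRBV26 was the V segment of the CD4 table with the most reads in gut. Its usage was 9.09% ± 1.83 in liver and 25.4% ± 1.76 in gut, and the 5 segments held 32.98% ± 1.96 of its reads before HCT, 37.1% ± 1.77 in liver and 41.6% ± 1.07 in gut. With TRBV26, TRBJ1-1 was 10.1% ± 0.134, 13.1% ± 1.45 and 15.1% ± 1.07 at the 3 sites, TRBJ1-3 was 9.90% ± 0.437, 9.91% ± 1.04 and 10.9% ± 0.491, and TRBJ1-5 was near 1% at each. TRBV23 had 3.70% ± 0.750 of listed reads in liver and 10.6% ± 2.39 in gut, with a TRBJ1 share of 32.3% in liver and 33.5% in gut.

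Some clonotypes had a CDR3 without the usual first cysteine or without a terminal F, W or L, and almost all of these carried TRBV26. In CD4 TRBJ1-1 they held 4.68% ± 0.418 of the reads before HCT, 10.6% ± 2.57 in liver and 29.0% ± 3.44 in gut, and in gut they ran from 17.9% ± 7.70 for TRBJ1-5 to 37.9% ± 4.09 for TRBJ1-2. Of these CD4 clonotypes, 99.1 to 99.9% were TRBV26. In CD8 cells they held at most 3.25% of a member's reads on average. With these clonotypes left out, 0 of the 5 segments passed between CD4 gut and liver (TRBJ1-3 0.22, TRBJ1-5 -0.46, each at an adjusted p of 0.082 in limma). In CD4 cells, leaving them out removed almost only TRBV26 clonotypes of the members. This setting therefore overlaps with that without TRBV23 and TRBV26 and is not a separate check. The CDR3 lengths, CDR3 ends, J trimming and D labels below also leave these clonotypes out, except where all CDR3 are said to be kept. Their part in the usage differences was not tested further.

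To separate V usage from J choice, the CD4 gut minus liver difference in the summed share, 4.40 percentage points, was split exactly into a part from V usage (1.09) and a part from the J share within V segments (3.31). For TRBJ1-1 the parts were 0.14 and 1.85 points, for TRBJ1-3 0.52 and 1.07, for TRBJ1-4 0.30 and 0.58, for TRBJ1-5 -0.26 and -0.35, and for TRBJ1-2 0.39 and 0.16. TRBJ1-2 was thus the member whose difference lay mostly in V usage. With V usage held fixed, 0 of the 5 segments passed in limma, with 0.23 for TRBJ1-3 (adjusted p = 0.054) and 0.21 for TRBJ1-1 (adjusted p = 0.090).

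Within the 18 V segments of CD4 cells, the mean share of TRBJ1-3 was higher in gut than in liver in 17, that of TRBJ1-1 in 13, that of TRBJ1-4 in 12 and that of TRBJ1-2 in 10, and that of TRBJ1-5 was lower in 13. In the 16 V segments of CD8 cells, TRBJ1-3 was higher in 13, TRBJ1-1 in 12 and TRBJ1-2 and TRBJ1-4 in 8 each, and TRBJ1-5 was lower in 11. V segments of the same library are not replicates, so these counts carry no test. Of the single V and J pairs, 0 of 90 TRBJ1 pairs passed in CD4 cells and 0 of 80 in CD8 cells (limma, 0% of 216 and of 192 pairs), with 11 and 6 at an unadjusted p under 0.05, where 6.02% and 6.25% of all pairs were.

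**Figure D4:**
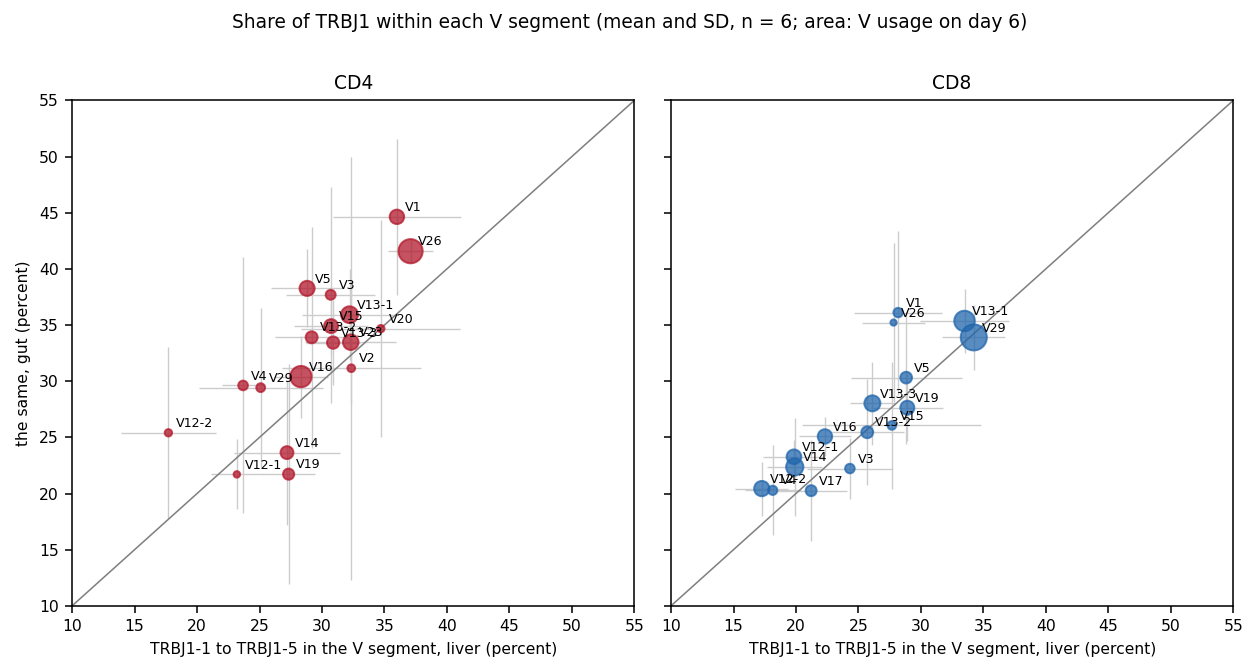
Share of TRBJ1-1 to TRBJ1-5 among the reads of each V segment (percent) in liver (x axis) and in gut (y axis), for 18 V segments in CD4 cells and 16 in CD8 cells. Points are means with SD (n = 6 libraries), their area follows the V usage, and the diagonal marks equal shares. In CD4 cells 13 of 18 V segments lie above the diagonal, and in CD8 cells 10 of 16.

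The clonotypes of the 5 segments kept most of the germline J bases. Among CDR3 with the usual first and last residues, the matching J bases numbered 17.0 on average for TRBJ1-1, 18.1 for TRBJ1-2, 20.5 for TRBJ1-3, 19.6 for TRBJ1-4 and 18.9 for TRBJ1-5 in CD4 cells, counted as an unbroken match from the 3′ end. The full germline CDR3 part was present in 51.3% of TRBJ1-3 clonotypes but in 20.7% of TRBJ1-4 and 23.2% of TRBJ1-1 clonotypes. TRBJ1-3 thus lost the fewest bases on average, 1.53, and TRBJ1-4 the most, 3.38. In CD8 cells that share ran from 21.9% for TRBJ1-1 to 48.4% for TRBJ1-3.

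Among CDR3 with the usual first and last residues, the last 6 residues were dominated by the germline end of each segment. All shares in this paragraph leave out the other CDR3. In CD4 cells, NTEVFF ended 47.8% of TRBJ1-1 clonotypes, NSDYTF 63.0% of TRBJ1-2, GNTLYF 94.4% of TRBJ1-3, NERLFF 78.7% of TRBJ1-4 and NQAPLF 74.0% of TRBJ1-5. Weighted by reads, the NTEVFF share of TRBJ1-1 was 50.1% ± 5.75 before HCT, 52.4% ± 3.08 in liver and 58.3% ± 5.87 in gut, and in CD8 cells it was 49.3% ± 4.20, 50.5% ± 1.79 and 57.2% ± 4.91. The liver and gut ranges overlapped between 53.1 and 56.5% in CD4 cells, and in CD8 cells they ran from 48.1 to 52.5% and from 52.0 to 65.0%. For TRBJ1-2, the NSDYTF share was 66.8% ± 4.12 in CD4 liver and 77.2% ± 10.2 in gut. These shares are descriptions without a test.

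The CDR3 of TRBJ1-3 and TRBJ1-4 were the longest of the 5 and those of TRBJ1-1 the shortest. Lengths were taken over CDR3 with the usual first and last residues. In CD4 liver libraries the read-weighted mean length was 13.2 residues for TRBJ1-1, 13.5 for TRBJ1-2, 14.1 for TRBJ1-3, 14.1 for TRBJ1-4 and 13.6 for TRBJ1-5, with SDs of 0.0781 to 0.142. Between CD4 gut and liver, 1 of the 5 passed, where 16.7% of all 12 segments did and 25% were at an unadjusted p under 0.05. TRBJ1-4 ran from 13.97 to 14.2 residues in liver and from 13.6 to 14.1 in gut, overlapping, and fell by 0.24 residues (SE 0.08, adjusted p = 0.041, limma), and TRBJ2-2 fell by 0.22. With all CDR3 kept, which adds back clonotypes that almost all carried TRBV26, 5 of the 5 passed. The share of all 12 segments that passed under that setting is not given here, so this count cannot be read as particular to the members. The call of TRBJ1-4 was lost with each clonotype counted once, without the 10 most frequent clonotypes of each library, without the gut libraries numbered 2 or the liver libraries numbered 1, and without any one of 7 libraries (liver WT 1 and 2, liver STAT3ko 1 and 2, liver STAT3koPD-1ko 2, gut WT 2 and gut STAT3ko 2). In CD8 cells 0 of 5 passed (0% of 12, limma), with TRBJ1-3 at an unadjusted p under 0.05 (-0.22 residues, adjusted p = 0.22, limma).

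The D segment labels followed the order of the locus. Trbd2 lies 3′ of the first J cluster, and among clonotypes with a CDR3 of the usual ends, TRBD2 was named in 5.39% of those with TRBJ1-1 to TRBJ1-5 in CD4 cells and in 7.17% in CD8 cells, against 38.2 and 42.3% of those with TRBJ2 segments. TRBD1 was named in 60.3 and 58.1% of the TRBJ1 clonotypes, and none in 34.3 and 34.8%. D segments are short and much trimmed, so these labels rest on few bases. The TRBD2 share of TRBJ1 reads in CD4 cells was 4.88% ± 0.946 in liver and 3.81% ± 0.690 in gut.

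TRBJ1-5 was described separately among frequent and rare clonotypes, without a test. In CD4 cells, clonotypes above 0.01% of the reads used TRBJ1-5 at 2.31% ± 0.635 before HCT, 1.85% ± 0.517 in liver and 1.04% ± 0.325 in gut, and those below at 2.09% ± 0.330, 2.00% ± 0.193 and 1.63% ± 0.183. From 33 to 55 TRBJ1-5 clonotypes per library exceeded that level before HCT, from 27 to 48 in liver and from 13 to 21 in gut. Over all TRBJ2 segments these numbers were also lower in gut, at 1195 to 1418 before HCT, 1155 to 1391 in liver and 656 to 1121 in gut. In CD8 cells the shares among the more frequent clonotypes were 1.95% ± 0.599, 1.41% ± 0.547 and 0.892% ± 0.270. TRBJ1-5 also had the fewest clonotypes found in many libraries: 0.702% of its CD4 clonotypes were in 10 or more of the up to 18 joined libraries, against 3.63% for TRBJ1-1 and 3.68% for TRBJ1-3.

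The clonotype with the highest mean on day 6 is shown for each segment and cell type, to let the trimmed J part be compared with the germline sequences above. Each nucleotide sequence is that of the representative of its CDR3, as is its V segment. Capitals mark the unbroken match to the germline J segment.

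CD4, TRBV13-2 with TRBJ1-1: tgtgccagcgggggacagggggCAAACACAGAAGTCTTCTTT
CD4, TRBV1 with TRBJ1-2: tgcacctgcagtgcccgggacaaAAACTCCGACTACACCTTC
CD4, TRBV3 with TRBJ1-3: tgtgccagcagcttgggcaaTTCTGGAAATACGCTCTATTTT
CD4, TRBV13-1 with TRBJ1-4: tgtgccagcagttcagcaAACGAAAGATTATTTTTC
CD4, TRBV13-1 with TRBJ1-5: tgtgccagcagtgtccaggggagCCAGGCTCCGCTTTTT
CD8, TRBV29 with TRBJ1-1: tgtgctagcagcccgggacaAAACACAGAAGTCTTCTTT
CD8, TRBV29 with TRBJ1-2: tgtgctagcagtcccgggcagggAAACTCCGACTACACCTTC
CD8, TRBV29 with TRBJ1-3: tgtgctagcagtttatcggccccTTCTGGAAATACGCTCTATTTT
CD8, TRBV29 with TRBJ1-4: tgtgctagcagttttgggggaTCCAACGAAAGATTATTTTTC
CD8, TRBV29 with TRBJ1-5: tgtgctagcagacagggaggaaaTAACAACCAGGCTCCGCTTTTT

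All 5 of the CD8 clonotypes carried TRBV29, which held 20.1% of the CD8 day 6 reads, whereas the CD4 clonotypes carried 4 different V segments. The CD4 TRBJ1-1 clonotype averaged 0.0618% of the reads on day 6, reached 0.676% in gut library 2 of STAT3koPD-1ko and at most 0.0507% elsewhere. The CD8 TRBJ1-1 clonotype averaged 0.0933% and was above 0 in 15 of 15 libraries. The CD4 clonotypes of TRBJ1-4 and TRBJ1-5 were above 0 in 3 of 15 libraries each.

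CD4 and CD8 cells shared few CDR3 with the same residues. TRBJ1-1 clonotypes shared 2187 CDR3, or 22.9% of the CD4 and 21.5% of the CD8 list, and TRBJ1-3 clonotypes 883, or 15.7 and 27.2%. TRBJ1-5 shared the smallest parts, 12.6 and 12.2%.

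Over the 30 libraries, after centring each segment on its mean, the profile most like that of TRBJ1-1 was that of TRBJ1-2, with a root mean square difference of 0.19 in log2 usage, followed by TRBJ2-7 with 0.27. TRBJ1-3 was closest to TRBJ1-4 (0.22) and TRBJ2-4 (0.32), and TRBJ1-4 was closest to TRBJ2-4 (0.20). TRBJ1-5 had no close match, with 0.37 to TRBJ2-5 and 0.42 to TRBJ1-6. The libraries share the split into CD4 and CD8 cells and into sites, and these likenesses are descriptions.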

How the data were processed

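RNA of sorted CD4+ and CD8+ donor T cells had been amplified with a SMARTer mouse TCR a/b kit and sequenced as paired reads, assembled to CDR3 clones with MiXCR and joined with VDJtools, per the methods of the study, which name 2 batches without tying them to libraries. The deposited values are the fraction of each library's reads per CDR3 amino acid sequence, as the authors made them. The listed fractions were summed per J segment and divided by the column total. limma 3.58.1 (R 4.3.3) was fitted on log2(percent + 0.1) over all TRBJ segments used at 0.5% or more on average, with Benjamini-Hochberg adjustment. V and J pairs used a pseudocount of 1 and V segments of at least 1%. The TCRα tables were not used. The script was tested on simulated data. Members, lists and tests were chosen with earlier results of these data known, and the members were all named. Other TRBJ segments were named if they passed the same test or had the 2 most similar profiles, and clonotypes by the highest day 6 mean. No source ties replicate numbers to separate cultures or days, so p-values measure the spread between these pooled samples. The alternatives changed the weighting, the clonotypes kept, the denominator and the libraries, one at a time.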

Additional observations from a re-analysis of the deposited data

Results flagged for a closer look

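TRBJ1-3 usage in the CD4 liver library 2 of STAT3koPD-1ko was 5.14%, set apart below the other 5 liver libraries, which ran from 6.16 to 6.54%. The gap was 0.730 of the whole range. Of 24 groups of libraries checked in this way, chance sets apart about 1 in 20. Without this library the gut against liver difference of TRBJ1-3 stayed past the threshold.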

How the results depend on the processing

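Of the 5 TRBJ1 segments, those past the threshold between CD4 gut and liver numbered 1 as fractions of all reads, 0 with each clonotype counted once, 3 without the 10 most frequent clonotypes of each library, 0 with CDR3 from C to a terminal F, W or L only, 0 with fixed V weights, 0 without TRBV23 and TRBV26, 2 without the gut libraries numbered 2 and 2 without the liver libraries numbered 1. Between CD4 gut and before HCT they numbered 1 as fractions of all reads and 0 without TRBV23 and TRBV26. In CD4 cells the setting with CDR3 from C to a terminal F, W or L also removes mostly TRBV26 clonotypes of the members, so these 2 settings overlap. The count for CDR3 length in CD4 cells was 0 with each clonotype counted once, 0 without the 10 most frequent clonotypes, 0 without the gut libraries numbered 2, 0 without the liver libraries numbered 1 and 5 with all CDR3 kept. Between CD8 gut and liver 1 passed as fractions of all reads, 1 without the 10 most frequent clonotypes and 2 with centred log ratios. Between CD8 gut and before HCT 0 passed with each clonotype counted once, 1 with clonotypes of at least 3 libraries and 0 without the liver libraries numbered 1. For STAT3koPD-1ko against STAT3ko in CD8 cells, 1 (TRBJ1-5) passed with a pseudocount of 1, 1 without the 10 most frequent clonotypes, 1 with centred log ratios and 1 without the gut libraries numbered 2. Single libraries left out moved these counts from 3 to 5, 3 to 4, 0 to 1, 0 to 1, 0 to 3 and 0 to 1, in the order given here. Except for the larger unlisted share in gut, which lowers fractions of all reads, the cause was not tested.

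As fractions of all reads the CD4 gut minus liver differences (log2) turned to -0.27 for TRBJ1-1, -0.29 for TRBJ1-2, -0.17 for TRBJ1-3 and -0.33 for TRBJ1-4, and those against before HCT to -0.19, -0.36, -0.12 and -0.39. In CD8 cells they turned to -0.38 for TRBJ1-1, -0.23 for TRBJ1-3 and -0.34 for TRBJ1-4 against liver, and to -0.41, -0.17 and -0.21 against before HCT. CD4 TRBJ1-2 against before HCT turned to -0.055 with CDR3 from C to a terminal F, W or L and to -0.048 without TRBV23 and TRBV26. CD8 TRBJ1-2 against liver turned to 0.040 with each clonotype counted once, to 0.045 without the gut libraries numbered 2 and to 0.045 without the liver libraries numbered 1, and ran from -0.064 to 0.024 with single libraries left out. CD8 TRBJ1-4 turned to -0.033 against liver and to -0.00476 against before HCT with each clonotype counted once.

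The correlations of same-numbered deviations were over 0.1 in 6 of 15 pairs of the CD4 table and in 8 of 15 of the CD8 table. Between liver and gut of 1 genotype they ran from -0.35 to 0.57 in CD4 cells (1 of 3 over 0.1) and from 0.091 to 0.41 in CD8 cells (2 of 3). Between the gut libraries of different genotypes they were all over 0.1, at 0.67, 0.45 and 0.44 in the CD4 table and 0.38, 0.80 and 0.63 in that of CD8 cells. With the number as a replicate block, 5 of the 5 members passed between CD4 gut and liver. In CD8 cells 1 member (TRBJ1-5, adjusted p = 0.044, limma) passed between gut and liver. For STAT3koPD-1ko against STAT3ko in CD8 cells 1 member (TRBJ1-5, adjusted p = 0.018, limma) passed. The block changed no other call of a member, and the shares of all 12 segments under the block are not given here. An exact two-sided permutation test was run within genotypes, with a smallest p of 0.0093 for a single segment. Between CD4 gut and liver it passed 4 of the 5 members, with TRBJ1-2 at an adjusted p of 0.056. Of the other TRBJ segments among the 12, it passed TRBJ2-5 alone (adjusted p = 0.044 by this permutation test).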
